A study of Zea mays with 18 samples.

Results

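Small heat shock proteins, also called HSP20 proteins, are a family of small chaperones defined by a conserved alpha-crystallin domain. They assemble into oligomers that bind unfolding proteins without using ATP and hold them until other chaperones refold them, and in plant leaves many of their genes are nearly silent until heat shock transcription factors switch them on. In Arabidopsis, some proteins with the same domain have other roles, such as RTM2, which restricts the movement of a potyvirus through the plant. The 8 maize genes described here carry the HSP20 domain annotation and were chosen from the study's heat map of HSP20 genes as genes that do not rise at 1 h of heat stress in either genotype. On the deposited values, given further on without a test, 6 of the 8 had negative changes in both genotypes. For some of the 6 the sign in W22 depended on the scaling. The 8 genes are Zm00001eb052730, Zm00001eb218280, Zm00001eb372830, Zm00001eb222820, Zm00001eb297350, Zm00001eb208810, Zm00001eb026680 and Zm00001eb026690, out of the 36321 genes in the table. No symbol or role of its own is known here for any of these IDs, so each is given by its ID.

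RNA-seq measured transcripts in maize leaves of 2 genotypes at 3 time points, with 3 libraries in each of the 6 groups. W22 is the inbred wild type, and *nf-ya1* derives from W22 and carries a Mutator transposon in *ZmNF-YA1* (Zm00001eb005690), which encodes a subunit of the CCAAT-binding factor NF-Y. Both genotypes were sampled before treatment (0 h), after 1 h of moderate heat stress (1 h) and after 2 h of recovery (R2h). These times are those of the sample titles, and other deposited text gives different ones. The duration of heating before R2h is not stated for these libraries, and *nf-ya1* is 1 insertion line, so a second lesion in it cannot be told apart from the insertion.

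The unit is FPKM, which scales the fragments of a gene by transcript length and by the mapped fragments of the library, and each library summed to between 804977 and 928910 FPKM with 24637 to 28580 genes above 0. *ZmNF-YA1* was at 0 in no library. At 0 h its FPKM was between 22.79 and 26.55 in W22 and between 12.6 and 21.15 in *nf-ya1*. The ranges at 1 h were 39.09–49.63 and 27.03–43.15, and those at R2h were 11.35–15.13 and 8.97–12.89. The study describes the mutant as lacking this transcript and reports levels under those of W22 by qRT-PCR, which is another measure than FPKM. The reason for the difference was not tested. Because the targeted transcript was present in the FPKM, these 9 libraries are called *nf-ya1* by their label only, and every direction between genotypes is one between the labels. The leaf label was checked with the 21 genes annotated as chlorophyll a-b binding proteins, of which 17 reached an FPKM of 1 in every one of the 18 libraries. In bulk tissue, fewer cells of a type and less RNA per cell cannot be told apart.

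The 8 genes had low transcript levels, with 1 exception. At 0 h in W22, 7 of them had mean FPKM between 0.177 (Zm00001eb026690) and 1.99 (Zm00001eb297350), while Zm00001eb208810 had a mean of 61.9. All 8 passed the filter on low values, which asked for 3 or more libraries with an FPKM of 1 or more. Only 4 of them (Zm00001eb218280, Zm00001eb372830, Zm00001eb297350 and Zm00001eb208810) would have passed on the W22 libraries alone. The other 4 reached 1 FPKM in no W22 library and entered the test through *nf-ya1*, the group in which they are high, so a difference between the genotypes is built into their entry. The plot of FPKM by library shows both features, the high level of Zm00001eb208810 in all groups and the *nf-ya1* mean at 0 h standing above the rest for the other 7 genes.

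**Figure D1:**
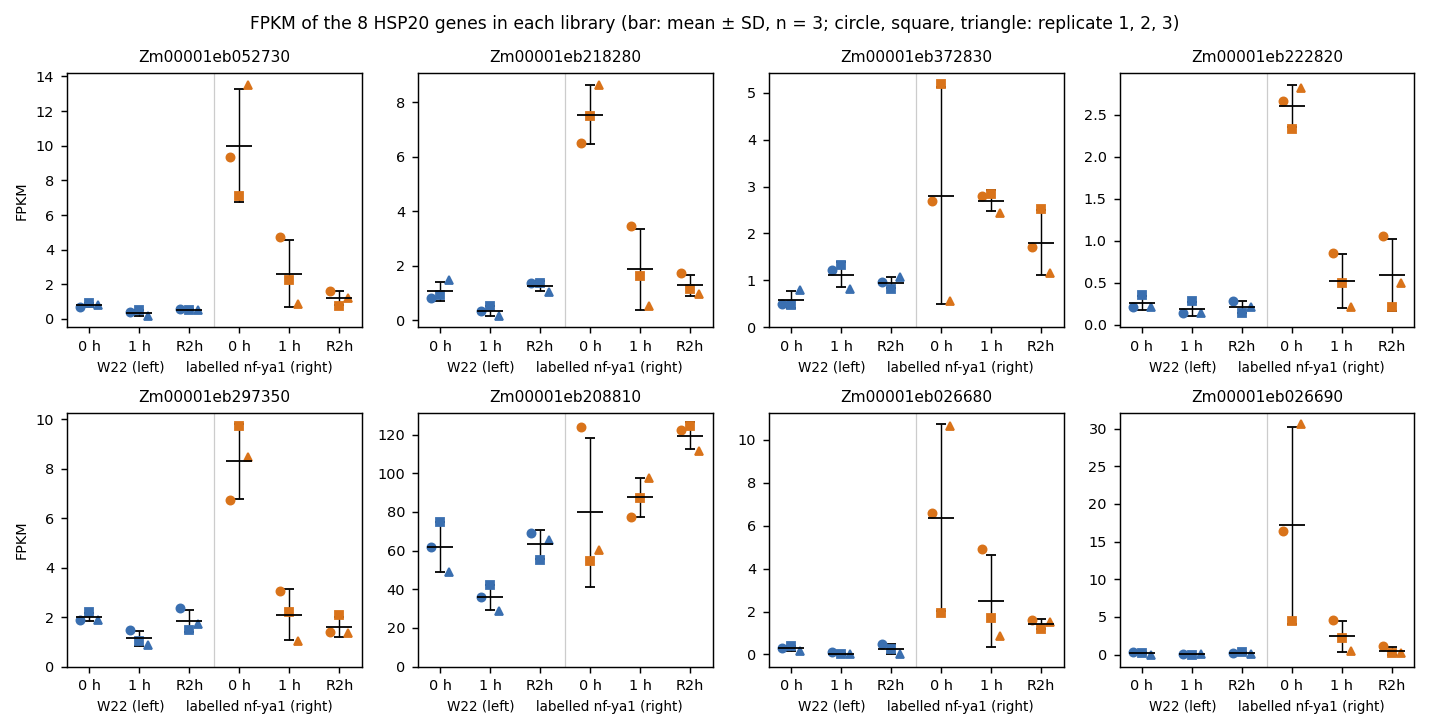
FPKM of the 8 genes in each of the 18 libraries, 1 panel per gene with its own linear scale, by genotype and time, with 1 symbol per library and a bar for the mean ± SD of each group (n = 3). For 7 of the 8 genes the highest mean is *nf-ya1* at 0 h, and for Zm00001eb208810 it is *nf-ya1* at R2h.

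The values at 1 h against 0 h chose the genes, so they are given as a description with no test. On the log2(FPKM + 1) scale the change from 0 h to 1 h in W22 ran from −0.77 (Zm00001eb208810) to 0.41 (Zm00001eb372830), and in *nf-ya1* from −2.27 (Zm00001eb026690) to 0.22 (Zm00001eb208810). The median over the 8 genes was −0.37 in W22 and −1.45 in *nf-ya1*, beside −0.51 and −0.92 over all 22572 genes tested. The libraries of the 2 times did not overlap for 5 genes that were lower and 1 that was higher in W22, where 59.5% of all tested genes were lower and 13% were higher without overlap. In *nf-ya1* they did not overlap for 4 lower genes, where 62.6% of all tested genes were lower and 10.3% higher without overlap. Most transcripts thus had lower FPKM at 1 h, and the change of a single gene has to be read against that shift.

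On the deposited FPKM, 6 of the 8 genes had negative 1 h/0 h values in both genotypes, and 2 had a positive value in at least 1 genotype. Zm00001eb372830 had 0.49, 0.48 and 0.80 FPKM in W22 at 0 h and 1.22, 1.32 and 0.82 at 1 h, so that each 1 h library was above each 0 h library, and its log2 fold change was 0.41 in W22. In *nf-ya1* it was 0.17, with overlapping libraries and a mean of 2.70 FPKM at 1 h beside 2.81 at 0 h. After median-ratio scaling, an alternative chosen after seeing the data that sets the typical gene to no change, its 1 h/0 h log2 fold change was 0.80 in W22 and 0.98 in *nf-ya1*. Zm00001eb208810 had a log2 fold change of 0.22 in *nf-ya1* as deposited (SE 0.25, overlapping libraries) and of 1.38 after that scaling. In W22 it was −0.77 and −0.06. With quantile normalization the values were 0.94 and 1.11 for Zm00001eb372830 and −0.44 and 0.49 for Zm00001eb208810 in W22 and *nf-ya1*. The other 6 genes stayed below 0 in *nf-ya1* under both alternatives, between −1.45 and −0.10, and in W22 they lay between −0.37 and 0.24. In W22 the sign itself depended on the scale for Zm00001eb222820 (−0.08, then 0.05 and 0.24 with median-ratio scaling and quantile normalization) and, under quantile normalization, for Zm00001eb052730 (0.0073), Zm00001eb297350 (0.06) and Zm00001eb026690 (0.06).

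The rule listed the 8 genes by ID, and no value of the 1 h/0 h change separated them from all other HSP20 genes. Their highest values were the 0.41 of Zm00001eb372830 in W22 and the 0.22 of Zm00001eb208810 in *nf-ya1*. The HSP20 genes next above them were Zm00001eb352720, with a log2 fold change of 0.76 in W22 and 1.10 in *nf-ya1*, and Zm00001eb032310, with 1.51 in W22 and 0.03 in *nf-ya1*. These come from 35 other genes with the HSP20 annotation in the portion held here of the study's list of differential genes, a list made on these same samples, and 33 of them were tested. Of the 33, 27 had calls for higher levels at 1 h in at least 1 genotype, and 6 in neither. The 6 were Zm00001eb125010, Zm00001eb047490, Zm00001eb322740, Zm00001eb222770, Zm00001eb218310 and Zm00001eb291920, so the 8 genes are not every HSP20 gene without a rise. Across all tested genes 5.79% were called higher at 1 h in W22 and 7.62% in *nf-ya1*, and 20.7% and 43.7% lower. Over the 33 genes the median 1 h/0 h log2 fold change was 4.73 in W22 and 6.42 in *nf-ya1*.

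The 43 HSP20 genes are the 8 and the 35 others from the portion held here of the study's differential genes. Shares and ranks are thus not those of the whole family. Summed over the 43, the 8 genes were a minor part of the FPKM in every library, with the highest shares in *nf-ya1* before heat. Their share of the summed HSP20 FPKM in W22 lay between 1.17 and 1.53% at 0 h, between 0.0217 and 0.0308% at 1 h and between 0.524 and 1.14% at R2h. The share in *nf-ya1* lay between 5.87 and 10.8% at 0 h, then between 0.0618 and 0.0650%, and at R2h between 0.540 and 0.899%. At 0 h the other 35 genes had the higher sum in W22, with 4598 to 5157 FPKM, beside 938 to 2175 FPKM in *nf-ya1*. At 1 h the same 35 genes summed to between 143189 and 155694 FPKM in W22 and between 154618 and 164893 FPKM in *nf-ya1*. The sum of the 8 genes was 54.45 to 80.13 FPKM in W22 and 92.92 to 175.05 FPKM in *nf-ya1* at 0 h. Zm00001eb208810 made up 90.2 to 94.2% of that sum in every group except *nf-ya1* at 0 h, where it was 44.6 to 70.9%, and in *nf-ya1* at 1 h, where 2 libraries had 76.0 and 86.7%. Among the 43 genes ordered by mean FPKM at 0 h, Zm00001eb026690 was at rank 36 in W22 and rank 15 in *nf-ya1*, and Zm00001eb208810 at rank 14 and rank 7.

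**Figure D2:**
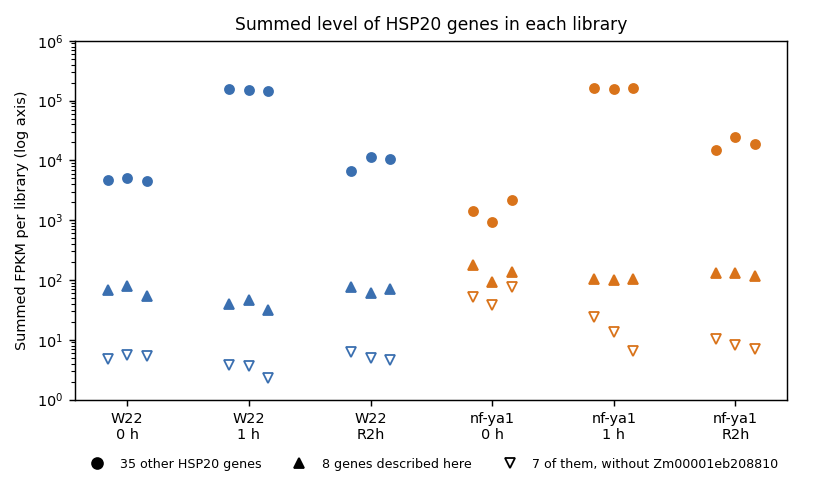
Summed FPKM of the 8 genes, of the 7 without Zm00001eb208810 and of the 35 other HSP20 genes in each of the 18 libraries, on a log axis, by genotype and time. At 0 h the *nf-ya1* libraries lie above W22 for the 8 genes (92.92 to 175.05 against 54.45 to 80.13) and below W22 for the other 35.

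Under normal conditions (0 h), 6 of the 8 genes had higher transcript levels in *nf-ya1* than in W22, by 1.52 to 3.62 on the log2(FPKM + 1) scale, and none was lower. The test was limma on log2(FPKM + 1) with Benjamini-Hochberg adjustment over the 22572 genes, and a call needed an adjusted p of at most 0.01 and a log2 fold change of at least 1 in size. Across all tested genes, 14.9% were called higher and 5% lower in this comparison. The libraries of the genotypes did not overlap for the same 6 genes, beside 39.9% of all tested genes that were higher and 15.7% that were lower without overlap. The median log2 fold change was 1.84 over the 8 genes and 0.24 over all genes. At an unadjusted p under 0.05 there were 7 genes, beside 55.2% of all tested genes. The 0 h libraries also entered the contrast that chose the genes, and 4 genes passed the filter through *nf-ya1*, so these counts are not independent of how the genes were picked. On the same scale, the 33 other HSP20 genes had 4 calls for higher and 13 for lower levels, with a median of −1.07. Of the 6 not called higher at 1 h in either genotype, Zm00001eb047490, Zm00001eb322740, Zm00001eb222770 and Zm00001eb218310 also had higher means in *nf-ya1*. Those of Zm00001eb125010 and Zm00001eb291920 were lower there, and these genes were chosen after seeing the values. A higher level in *nf-ya1* at 0 h was thus not particular to the 8 genes.

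Zm00001eb052730 was among the 6. It had 0.70, 0.95 and 0.82 FPKM in the W22 libraries at 0 h and 9.36, 7.11 and 13.52 FPKM in the *nf-ya1* libraries. The lowest *nf-ya1* library was far above the highest W22 library, and the ratio of the means was 12.1. The log2 fold change was 2.55 (SE 0.30, adjusted p = 9.43e-06). Zm00001eb218280 had 0.80, 0.91 and 1.47 FPKM in W22 and 6.49, 7.49 and 8.64 FPKM in *nf-ya1*, with a log2 fold change of 2.06 (SE 0.28 and adjusted p = 3.82e-05). Its *nf-ya1* libraries were close to each other, and the ratio of the means was 7.11. Zm00001eb297350 had 1.90, 2.19 and 1.89 FPKM in W22 and 6.71, 9.73 and 8.45 FPKM in *nf-ya1*. The groups were again apart, with means 4.16-fold different and a log2 fold change of 1.62 (SE 0.22 and adjusted p = 3.36e-05).

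The other 3 genes of the 6 were below 0.5 FPKM in every W22 library. Zm00001eb222820 had 0.21, 0.35 and 0.21 FPKM in W22 at 0 h and 2.67, 2.33 and 2.82 FPKM in *nf-ya1*, a log2 fold change of 1.52 (SE 0.19 and adjusted p = 1.21e-05). Chosen after its values were seen, the 9 W22 values of this gene were all multiples of 0.07 FPKM, from 2 to 5 units, without remainder at the 2 decimals given. Values this low may rest on few fragments, and the number of reads behind them is not known. Zm00001eb026690 had 0.34, 0.19 and 0 FPKM in W22 and 16.44, 4.42 and 30.59 FPKM in *nf-ya1*. It had the highest log2 fold change of the 8 genes, 3.62 (SE 0.52, adjusted p = 5.2e-05), with *nf-ya1* libraries that differed several-fold among themselves. Zm00001eb026680 had 0.31, 0.40 and 0.15 FPKM in W22 and 6.58, 1.91 and 10.63 FPKM in *nf-ya1*, with a log2 fold change of 2.31 (SE 0.42 and adjusted p = 0.000412). The call of Zm00001eb026680 was lost with a pseudocount of 0.01 (adjusted p = 0.0138) and in a fit of the 2 groups alone (adjusted p = 0.0164), and quantile normalization put Zm00001eb222820 at 0.97, just under the threshold on size. In both Zm00001eb026680 and Zm00001eb026690 replicate 3 was the highest and replicate 2 the lowest of the *nf-ya1* libraries at 0 h. The same order held for Zm00001eb052730 and Zm00001eb222820, so it was not particular to this pair. The IDs of Zm00001eb026680 and Zm00001eb026690 follow each other in the gene set. Whether fragments were shared between these 2 genes in the counting is not known here, so their levels are uncertain as separate values.

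The remaining 2 genes did not pass the test at 0 h. Zm00001eb372830 had 0.49, 0.48 and 0.80 FPKM in W22 and 2.69, 5.18 and 0.56 FPKM in *nf-ya1*. Replicate 3 of *nf-ya1* lay within the W22 values while the others were above them, and the log2 fold change was 1.05 (SE 0.34, adjusted p = 0.0186). Without that library it was 1.59 (adjusted p = 8.08e-05), and the number of genes called higher became 7. Zm00001eb208810 had 61.9, 74.66 and 49.11 FPKM in W22 and 124.11, 54.75 and 60.45 FPKM in *nf-ya1*. Only the first *nf-ya1* library stood above W22, and the log2 fold change was 0.28 (SE 0.25, adjusted p = 0.362), or −0.0037 after median-ratio scaling.

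**Figure D3:**
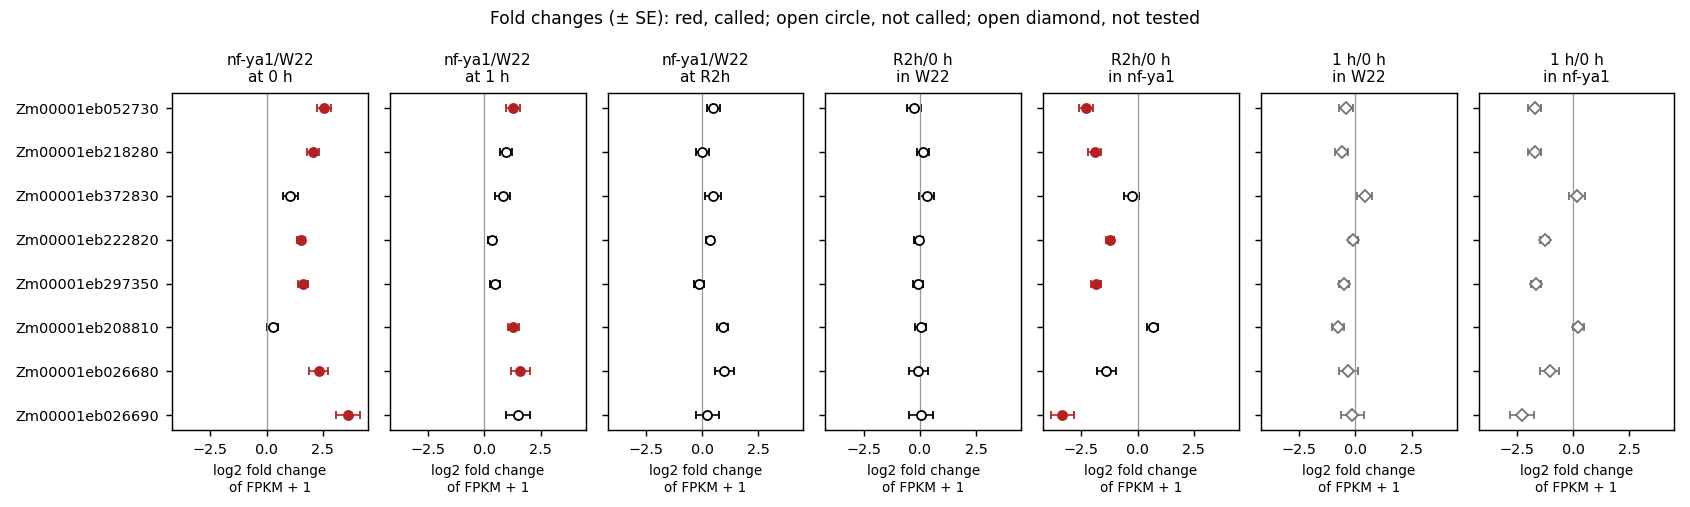
Log2 fold changes of the 8 genes on the log2(FPKM + 1) scale in 7 comparisons, with bars of 1 SE from limma. Filled points are genes called at an adjusted p of at most 0.01 and a size of at least 1, open circles were not called and open diamonds (1 h/0 h, which chose the genes) were not tested. At 0 h 6 genes are called higher in *nf-ya1*, and 5 are called lower at R2h against 0 h in *nf-ya1*.

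When heat stress had lasted 1 h, 3 of the 8 genes had higher transcript levels in *nf-ya1* than in W22 and none was lower. They were Zm00001eb052730, Zm00001eb026680 and Zm00001eb208810, and 9.06% of all tested genes were called higher and 7.33% lower. The median log2 fold change was 1.12 over the 8 genes and −0.05 over all genes. The libraries did not overlap for 5 genes, all higher in *nf-ya1*, beside 24.1% of all tested genes that were higher and 31.4% that were lower. At an unadjusted p under 0.05 there were 7 genes, beside 53.2% of all tested genes. The 1 h libraries also entered the contrasts that chose the genes, and Zm00001eb052730 and Zm00001eb026680 passed the filter only through *nf-ya1*, so this count is not independent of the choice either. The count rests on single libraries, since it was 1 without replicate 3 of W22 at 1 h or without replicate 1 or 2 of *nf-ya1* at 1 h, and 5 without replicate 3 of *nf-ya1* at 1 h. The 33 other HSP20 genes had a median of 0.21, with 5 calls for higher and 1 for lower levels.

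Of the 3 genes, Zm00001eb208810 was the one not also called at 0 h, and it kept its call at 1 h under all 28 alternatives. It had 36.22, 42.15 and 28.79 FPKM in W22 at 1 h and 77.52, 87.26 and 97.6 FPKM in *nf-ya1*. The groups were well apart, with a ratio of the means of 2.45 and a log2 fold change of 1.28 (limma, SE 0.25, adjusted p = 0.000646). Zm00001eb052730 had 0.38, 0.52 and 0.19 FPKM in W22 and 4.72, 2.24 and 0.89 FPKM in *nf-ya1*, and its log2 fold change was 1.27 (SE 0.30, adjusted p = 0.00313). Zm00001eb026680 was listed at 0 in 2 W22 libraries and at 0.10 in the other, and had 4.91, 1.72 and 0.86 FPKM in *nf-ya1*, with a log2 fold change of 1.59 (SE 0.42 and adjusted p = 0.00627). Both genes were separate from W22 in every *nf-ya1* library, though in each the libraries differed among themselves several-fold. The call of Zm00001eb052730 was lost without replicate 3 of W22 or replicate 1 or 2 of *nf-ya1* at 1 h, with adjusted p from 0.0108 to 0.0159. That of Zm00001eb026680 was lost without any 1 of the W22 libraries or replicate 1 or 2 of *nf-ya1* at 1 h (adjusted p from 0.0137 to 0.0357), and with no filter on low values (0.0112). Both calls were also lost in a fit of the 2 groups alone, with adjusted p of 0.0453 for Zm00001eb052730 and 0.0253 for Zm00001eb026680.

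The 5 genes without a call at 1 h all had positive log2 fold changes, from 0.33 (Zm00001eb222820) to 1.49 (Zm00001eb026690). Zm00001eb026690 had 0.10, 0 and 0.09 FPKM in W22 and 4.61, 2.22 and 0.48 FPKM in *nf-ya1*, so the libraries were apart, but the adjusted p was 0.028 (SE 0.52). It was called without replicate 2 of *nf-ya1* at 0 h (adjusted p = 0.005) or replicate 3 of *nf-ya1* at 1 h (2.00, adjusted p = 0.00576). Zm00001eb372830 had 1.22, 1.32 and 0.82 FPKM in W22 and 2.80, 2.85 and 2.44 FPKM in *nf-ya1*. These groups did not overlap either, and its log2 fold change of 0.81 (SE 0.34, adjusted p = 0.0642) missed both thresholds. Zm00001eb218280 had a log2 fold change of 0.96 (SE 0.28 and adjusted p = 0.0121), Zm00001eb297350 of 0.49 (SE 0.22, adjusted p = 0.0822) and Zm00001eb222820 of 0.33 (SE 0.19, adjusted p = 0.154). In Zm00001eb218280 and Zm00001eb297350 replicate 3 of *nf-ya1* fell among the W22 libraries, with 0.51 and 1.03 FPKM. Without that replicate Zm00001eb218280 had 1.35 (adjusted p = 0.000297), a call for higher. It was also called with pseudocounts of 0.1 (1.89, adjusted p = 0.00486) and 0.01 (2.15, adjusted p = 0.00441) and with median-ratio scaling (1.24, adjusted p = 0.00326).

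Within *nf-ya1* at 1 h the libraries had the same order in most of the 8 genes. Replicate 1 was the highest for 6 genes and replicate 3 the lowest for 7, and Zm00001eb208810 had the reverse order. The share of all tested genes with this order was not taken, so it cannot be read as particular to the 8 genes. Whole libraries differed too, with 27198, 26980 and 25817 genes above 0 in replicates 1, 2 and 3. The summed FPKM of the 21 chlorophyll a-b binding genes, which encode light-harvesting antenna proteins, was 65925, 42222 and 25829 in replicates 1, 2 and 3, beside 12859 to 21261 in W22 at 1 h and 66038 to 69484 in *nf-ya1* at 0 h. The summed FPKM of the 8 genes with the histone H4 fold, markers of dividing cells, was 533, 331 and 176 in the same libraries. That sum was 127.6 to 174.5 in W22 at 1 h, 143.8 to 200 in *nf-ya1* at 0 h and 112 to 138 in W22 at 0 h, so replicates 1 and 2 stood above these groups and replicate 3 lay within *nf-ya1* at 0 h. Both lists come from the study's list of differential genes, and their part in the result was not tested. At 1 h, 12 of the 21 chlorophyll a-b binding genes and 4 of the 8 histone genes were called higher in *nf-ya1* and none lower.

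During recovery (R2h), none of the 8 genes passed the test between the genotypes in limma, where 5.14% of all tested genes were called higher and 3.1% lower. At an unadjusted p under 0.05 there were 2 genes, beside 39.4% of all tested genes, and the median log2 fold change was 0.43, beside −0.02 over all genes. This comparison shares no library with the contrasts that chose the genes, but the filter on low values read all libraries. Zm00001eb052730, Zm00001eb222820, Zm00001eb026680 and Zm00001eb026690 passed it only through *nf-ya1*, so for them a difference between the genotypes is not independent of the filter. Zm00001eb208810 came nearest to a call, with 69.03, 54.91 and 65.52 FPKM in W22 and 122.57, 124.4 and 111.3 FPKM in *nf-ya1*. The groups were apart by a ratio of the means of 1.89, and the log2 fold change of 0.91 (SE 0.25, adjusted p = 0.0133) was under the threshold on size. Zm00001eb026680 had 0.47, 0.24 and 0 FPKM in W22 and 1.62, 1.18 and 1.5 FPKM in *nf-ya1*, also without overlap, with a log2 fold change of 0.99 (SE 0.42 and adjusted p = 0.0931). In all, 4 genes had no overlap and were higher in *nf-ya1*, beside 24.1% of all tested genes that were higher and 27.6% that were lower. The others had log2 fold changes from −0.13 (Zm00001eb297350) to 0.51 (Zm00001eb052730), with adjusted p from 0.163 to 0.995. The 33 other HSP20 genes had a median of 0.78, with 9 calls for higher and none for lower levels.

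In W22, none of the 8 genes had a call between R2h and 0 h. The R2h/0 h log2 fold changes of the 8 genes ran from −0.25 (Zm00001eb052730) to 0.30 (Zm00001eb372830) in limma, with adjusted p from 0.597 to 0.986, and none had an unadjusted p under 0.05, beside 34.8% of all tested genes. Across all tested genes 3.96% were called higher and 1.87% lower. Libraries did not overlap for 1 gene that was higher, Zm00001eb372830 (0.97, 0.82 and 1.07 FPKM at R2h), and 1 that was lower, Zm00001eb052730 (0.57, 0.51 and 0.51 FPKM), beside 36.1% and 14.6% of all tested genes. The median was −0.01 over the 8 genes and 0.13 over all genes. The 33 other HSP20 genes had a median of 0.36, with 12 calls for higher and 2 for lower levels.

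In *nf-ya1*, 5 of the 8 genes were lower at R2h than at 0 h and none was called higher, beside 11.6% of all tested genes called lower and 6.89% higher. The median log2 fold change was −1.61 over the 8 genes and −0.09 over all genes, and 7 genes had an unadjusted p under 0.05, beside 52% of all tested genes. This comparison shares the 0 h libraries of *nf-ya1* with the contrast that chose the genes and with the genotype comparison at 0 h, so a high value there lowers R2h/0 h too. Of the 5, Zm00001eb052730, Zm00001eb222820 and Zm00001eb026690 passed the filter on low values only through *nf-ya1*, so this count is not independent of the choice. The libraries did not overlap for 6 lower genes, beside 29.8% of all tested genes that were lower and 19.8% that were higher. Over the same interval the 33 other HSP20 genes had 21 calls for higher and 2 for lower levels, with a median of 3.38.

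Zm00001eb026690 had the lowest R2h/0 h value in *nf-ya1*. Its R2h libraries had 1.11, 0.17 and 0.17 FPKM, each below the lowest 0 h library, and the log2 fold change was −3.34 (limma, SE 0.52, adjusted p = 0.000103). Zm00001eb052730 had 1.60, 0.77 and 1.23 FPKM at R2h and a log2 fold change of −2.30 (SE 0.30 and adjusted p = 2.26e-05). Zm00001eb218280 had 1.72, 1.15 and 0.98 FPKM and a log2 fold change of −1.91 (SE 0.28 and adjusted p = 7.02e-05). At R2h the *nf-ya1* libraries of Zm00001eb052730 were still above the 0.51 to 0.57 FPKM of W22, while those of Zm00001eb218280 overlapped the 1.03 to 1.38 FPKM of W22. Zm00001eb297350 had 1.41, 2.07 and 1.34 FPKM at R2h, where its W22 libraries had 2.35, 1.49 and 1.70 FPKM, and a log2 fold change of −1.83 (SE 0.22 and adjusted p = 9.67e-06). Zm00001eb222820 had 1.06, 0.21 and 0.50 FPKM and a log2 fold change of −1.21 (SE 0.19 and adjusted p = 8.93e-05). Its call was lost with quantile normalization (−0.87, under the threshold on size) and in a fit of the 2 groups alone (adjusted p = 0.0117), where Zm00001eb026690 was not called either (adjusted p = 0.0143).

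The other 3 genes did not pass in *nf-ya1* at R2h against 0 h. Zm00001eb026680 had a log2 fold change of −1.39 (limma, SE 0.42, adjusted p = 0.0142), and without replicate 2 of *nf-ya1* at 0 h it was −1.95 (adjusted p = 0.000479). It was also called, at −1.39, without replicate 1 or 3 of *nf-ya1* at 1 h (adjusted p = 0.00533 and 0.0088), which enter this comparison only through the shared spread. Zm00001eb372830 had 1.72, 2.53 and 1.15 FPKM at R2h, which overlapped its 0 h libraries, and a log2 fold change of −0.26 (adjusted p = 0.562). Zm00001eb208810 had the opposite sign, with a log2 fold change of 0.67 (SE 0.25 and adjusted p = 0.0365). Its first 0 h library of 124.11 FPKM lay at the level of the R2h libraries, and without it the value was 1.04 (adjusted p = 0.000438), a call for higher.

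The change from 0 h to R2h differed between the genotypes for 5 of the 8 genes, all more negative in *nf-ya1*, in the genotype by recovery interaction of limma. In this test 9.67% of all tested genes were called lower and 3.16% higher, with a median of −0.28 over all genes and of −1.53 over the 8. The 5 were Zm00001eb052730 (−2.05, SE 0.43, adjusted p = 0.00274), Zm00001eb218280 (−2.05, SE 0.40, adjusted p = 0.00178), Zm00001eb222820 (−1.16, SE 0.26, adjusted p = 0.00446), Zm00001eb297350 (−1.75, SE 0.31, adjusted p = 0.000983) and Zm00001eb026690 (−3.39, SE 0.73, adjusted p = 0.00336). The interaction reads the same 0 h libraries as the genotype comparison at 0 h, so the 2 sets of calls are not separate evidence. Those libraries also entered the contrasts that chose the genes. In addition, Zm00001eb052730, Zm00001eb222820 and Zm00001eb026690 passed the filter on low values only through *nf-ya1*, so this count is not independent of the choice. The highest W22 values at 0 h on this scale were 0.96 (Zm00001eb052730), 1.30 (Zm00001eb218280) and 1.67 (Zm00001eb297350). Those of Zm00001eb222820 and Zm00001eb026690 were 0.43 and 0.42. Each is smaller than the fall of that gene in *nf-ya1*, so W22 had no room to fall as far. The term therefore cannot tell a different recovery from the difference at 0 h. Zm00001eb026680 had −1.32 (SE 0.59, adjusted p = 0.104), Zm00001eb372830 had −0.56 (adjusted p = 0.393) and Zm00001eb208810 had 0.63 (adjusted p = 0.18). The 33 other HSP20 genes had a median of 1.95, with 18 calls for higher and 2 for lower values. The call of Zm00001eb222820 was lost in 7 of the 18 fits without 1 library, those without replicate 1 or 3 of W22 at 0 h or at R2h, replicate 3 of *nf-ya1* at 0 h, or replicate 2 or 3 of *nf-ya1* at R2h, with values from −1.16 to −0.98 and adjusted p from 0.0102 to 0.0116. That of Zm00001eb026690 was lost without replicate 2 of W22 at R2h (−3.30), and Zm00001eb026680 was called (−1.88, adjusted p = 0.00846) without replicate 2 of *nf-ya1* at 0 h. Zm00001eb222820 also lost its call with median-ratio scaling (−0.93, adjusted p = 0.0172) and quantile normalization (−0.79, adjusted p = 0.0225). A pseudocount of 0.1 left 2 calls and a pseudocount of 0.01 left 1.

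Ordered by mean FPKM, *nf-ya1* at 0 h was the highest of the 6 groups for 7 genes. Its libraries were apart from those of the next group for Zm00001eb052730, Zm00001eb218280, Zm00001eb222820 and Zm00001eb297350, and overlapped them for Zm00001eb372830, Zm00001eb026680 and Zm00001eb026690. For Zm00001eb208810 the highest group was *nf-ya1* at R2h, apart from *nf-ya1* at 1 h below it, and the lowest was W22 at 1 h, apart from W22 at 0 h above it. Most other neighbours in these orders overlapped.

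How the levels went together across libraries is given as a description, since the libraries share groups and 6 of the genes were set apart by their level in *nf-ya1* at 0 h. Among the 6 genes called higher at 0 h, the 15 pairs had Pearson correlations of 0.75 to 0.97 over the 18 libraries on the log2(FPKM + 1) scale, and of 0.23 to 0.93 after group means were removed. The 13 pairs with Zm00001eb372830 or Zm00001eb208810 had 0.16 to 0.49 over the libraries and −0.64 to 0.26 within groups, so the 2 sets of pairs overlapped once group means were removed. Zm00001eb026680 and Zm00001eb026690, with consecutive IDs, had 0.93 both over the libraries and within groups. The plot of pairwise correlations shows the block of 6 genes and the weaker values of the other 2.

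**Figure D4:**
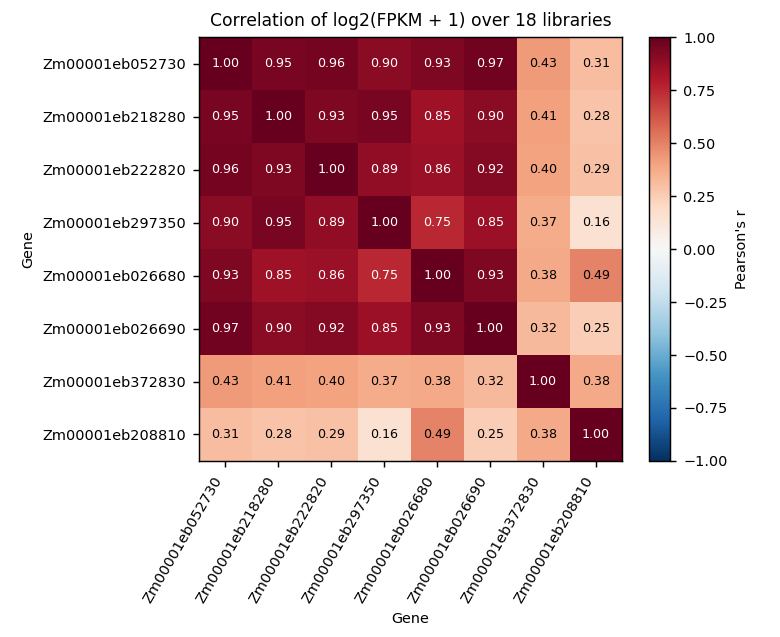
Pearson correlations of log2(FPKM + 1) between the 8 genes over the 18 libraries, with the value printed in each cell. The 15 pairs among the 6 genes called higher at 0 h lie between 0.75 and 0.97, and pairs with Zm00001eb372830 or Zm00001eb208810 between 0.16 and 0.49.

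For each gene the 2 genes of the table with the most similar pattern over the 18 libraries were noted, by the same correlation. The values were 0.99 for Zm00001eb235840 and Zm00001eb387520 beside Zm00001eb052730, and 0.98 and 0.96 for Zm00001eb102030 and Zm00001eb145950 beside Zm00001eb218280. Beside Zm00001eb222820 they were 0.98 for both Zm00001eb363420 and Zm00001eb410770. Zm00001eb297350 was most like Zm00001eb403750 (0.97) and Zm00001eb178490 (0.96), the second of which is annotated with a BURP domain, which defines a plant-specific protein family. Zm00001eb026680 was most like Zm00001eb068660 and Zm00001eb081110, both at 0.98, and Zm00001eb026690 like Zm00001eb348580 (0.99) and Zm00001eb002800 (0.98). As in these genes, levels of these neighbours at 0 h were low in W22 and higher in *nf-ya1*, for example means of 0.0867 and 46.5 FPKM for Zm00001eb068660.

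Zm00001eb208810 and Zm00001eb372830 had other neighbours. Zm00001eb208810 was most like Zm00001eb208830 (0.91), whose ID lies close to its own, and Zm00001eb278510 (0.89), annotated as an alkyl hydroperoxide reductase or thiol-specific antioxidant, a family of enzymes that reduce peroxides. Zm00001eb372830 had the lowest best match of the 8 genes, 0.86 to Zm00001eb416030 and 0.83 to the unnamed transcript BGI_novel_G002593. These neighbours, too, had higher means in *nf-ya1* than in W22 at 0 h. In W22 and *nf-ya1* the means were 4.56 and 10.5 FPKM for Zm00001eb208830 and 178 and 224 FPKM for Zm00001eb278510. They were 0 and 0.963 FPKM for Zm00001eb416030 and 0.183 and 14.4 FPKM for BGI_novel_G002593.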

How the data were processed

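Maize leaf RNA was sequenced on the BGISEQ-500 platform in 18 libraries. The authors filtered the reads, aligned them to B73 V5 and deposited 1 table of FPKM, rounded to 2 decimals, for all libraries. The aligner and the counting tool are not given in the sources used here, read counts per gene were not used here, and the precision comes from the spread between replicates. The study's methods call the replicates biological, and the labels do not say how many plants a library held.

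Groups followed the sample titles. In R 4.3.3 with limma 3.58.1, log2(FPKM + 1) was fitted with 1 mean per group and empirical Bayes moderation with an intensity trend, for the 22572 genes that reached 1 FPKM in 3 or more libraries. Adjustment of p followed Benjamini and Hochberg. This scale understates changes of genes with low FPKM. An exact permutation test of 3 against 3 libraries cannot go below 0.1, hence the moderated model. Python 3.11.15 with Matplotlib 3.10.9 drew the figures.

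The 8 genes and all lists (35 other HSP20, 11 DnaJ C-terminal, 27 Cpn60/TCP-1, 10 BAG, 21 chlorophyll a-b binding and 8 histone H4 fold genes) were chosen with earlier results of these data known, and the lists come from the portion held here of the study's differential genes. Named genes were the 8, the 2 genes most correlated with each and *ZmNF-YA1*. The HSP20 genes next above the 8 at 1 h or called higher in neither genotype were named after their values were seen. No ID matched the RefSeq gene table, so no sequence or coordinate is given. Alternatives were median-ratio scaling, pseudocounts of 0.1 and 0.01, quantile normalization, no filter or a minimum mean of 5 FPKM, no intensity trend, a fit of the compared groups alone, a block for the replicate number, an adjusted p of 0.05 and leaving out each library. Median-ratio and quantile values of 1 h/0 h were added after seeing the data.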

Additional observations from a re-analysis of the deposited data

Results flagged for a closer look

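The change from 0 h to R2h differed between the genotypes, by the interaction term of limma on log2(FPKM + 1), for 5 of the 8 genes. All 5 were called lower, where 9.67% of all tested genes were called lower and 3.16% higher, with a median of −0.28. A pseudocount of 0.1 left 2 of these calls and a pseudocount of 0.01 left 1. The difference (*nf-ya1* minus W22) was −2.05 for Zm00001eb052730, whose own R2h/0 h log2 fold changes were −2.30 in *nf-ya1* and −0.25 in W22, and −2.05 for Zm00001eb218280, with −1.91 and 0.14. It was −1.16 for Zm00001eb222820 (−1.21 and −0.05), −1.75 for Zm00001eb297350 (−1.83 and −0.08) and −3.39 for Zm00001eb026690 (−3.34 and 0.06). The 0 h libraries in this term also entered the contrasts that chose the genes, and Zm00001eb052730, Zm00001eb222820 and Zm00001eb026690 passed the filter on low values only through *nf-ya1*, so the term is not independent of the choice. In W22 at 0 h these 5 genes lay too near 0 for a fall of the size seen in *nf-ya1*. The term therefore cannot tell a different recovery from the difference at 0 h.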

How the results depend on the processing

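The depth behind a gene's FPKM is not known, most of the 8 genes lay near or under 1 FPKM in W22, and with 3 libraries a group 1 library can decide a call. With a mean FPKM of at least 5, only Zm00001eb208810 of the 8 genes was still tested, which left 0 genes called higher at 0 h, 1 at 1 h, and 0 called lower at R2h/0 h in *nf-ya1* and in the interaction. Of the 3 genes called higher in *nf-ya1* at 1 h, the number became 5 with a pseudocount of 0.1 or 0.01 or with median-ratio scaling and 1 in a fit of only the groups compared. Such a fit also left 3 of 5 genes called lower at R2h/0 h in *nf-ya1*, and the interaction's 5 became 2 with a pseudocount of 0.1 and 1 with 0.01. The cause was not tested.

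Leaving out each library in turn gave 6 to 7 genes called higher at 0 h, 1 to 5 at 1 h, 0 to 1 called higher and 5 to 6 lower at R2h/0 h in *nf-ya1*, 4 to 6 lower in the interaction, and 0 in the other counts. The replicate block, the replicate number as a term in the fit, gave 6, 3, 0, 0, 5 and 5 genes in the same order of comparisons (0 h, 1 h, R2h, R2h/0 h in W22 and in *nf-ya1*, interaction) and changed no call, and the numbers did not pair the libraries, with correlations of same-numbered deviations between −0.11 and 0.10.

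Reversed signs concerned values without a call. Zm00001eb218280 at R2h had −3e-04 and −0.002 with pseudocounts of 0.1 and 0.01 and −0.066 with quantile normalization, which also gave −0.0027 for its R2h/0 h in W22 and −0.046 for that of Zm00001eb208810. Median-ratio scaling gave Zm00001eb208810 −0.0037 at 0 h and −0.18 at R2h/0 h in W22. Of the values of single genes under the alternatives other than leaving out a library, 404 kept their direction and side of the threshold, 18 lost a call, 9 gained one and 7 were reversed. Without 1 library, 828 were kept, 16 lost a call, 9 gained one and 11 were reversed. The reversals fell in these ranges: Zm00001eb208810 from −0.083 to 0.50 at 0 h and from −0.11 to 0.19 at R2h/0 h in W22, Zm00001eb218280 from −0.13 to 0.10 and Zm00001eb026690 from −0.053 to 0.37 at R2h, Zm00001eb372830 from −0.80 to 0.19 at R2h/0 h in *nf-ya1*, and at R2h/0 h in W22 Zm00001eb297350 from −0.21 to 0.0083, Zm00001eb026680 from −0.20 to 0.074 and Zm00001eb026690 from −0.057 to 0.15.

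Over all genes, the 3365 called higher at 0 h became 1478 with a mean FPKM of at least 5, 2053 with quantile normalization and 2172 in a fit of only the groups compared, while the 1129 lower became 1817 with quantile normalization and 610 in that fit. At 1 h the 2046 higher became 3197 with a pseudocount of 0.01 and 1272 with the mean FPKM of at least 5, and the 1655 lower became 2612 and 2707 with pseudocounts of 0.1 and 0.01. At R2h that filter left 547 of 1161 higher and 363 of 699 lower. For R2h/0 h in W22 the 893 higher became 575 with that filter, 483 with median-ratio scaling and 537 with quantile normalization. In *nf-ya1* the 2610 lower became 1303 with that filter and 1467 with only the groups compared, which left 895 of 1555 higher. The interaction's 2182 lower became 976, 1058 and 1092 with that filter, median-ratio scaling and quantile normalization, and its 713 higher became 1085 at an adjusted p of 0.05.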

Other observations

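Other chaperone groups of the study's list of differential genes were described beside the 8 genes by their counts. The genes with a DnaJ C-terminal domain encode co-chaperones that pass unfolded proteins to HSP70, and of the 10 tested, 2 were called higher and 4 lower in *nf-ya1* than in W22 at 0 h (limma, median log2 fold change −0.26), and 2 higher and none lower at 1 h. The Cpn60/TCP-1 genes encode barrel-shaped chaperonins, and of the 27 tested, 3 were called higher and none lower at 0 h (median 0.55), and 2 higher and 4 lower at 1 h (median −0.41). The BAG genes encode partners of HSP70, and of the 8 tested, 3 were called higher and 1 lower at 0 h (median 0.79), while 2 were called higher and 4 lower at R2h against 0 h in *nf-ya1* (median −0.89). At 0 h, 2 of the 21 chlorophyll a-b binding genes (median 0.19) and 2 of the 8 histone H4 fold genes (median 0.45) were called higher and none lower. Across all tested genes, 14.9% were called higher and 5% lower at 0 h (median 0.24), and 9.06% and 7.33% at 1 h (median −0.05). At R2h against 0 h in *nf-ya1*, 6.89% were called higher and 11.6% lower (median −0.09). In that comparison the DnaJ C-terminal genes had 0 calls for higher and 5 for lower (median −1.10). The Cpn60/TCP-1 genes had 1 for each (median −0.26).

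The 6 other HSP20 genes with no call for higher at 1 h in either genotype had these mean FPKM at 0 h in W22 and *nf-ya1*. Zm00001eb047490 had 0.293 and 5.54, Zm00001eb322740 had 0.88 and 3.10, Zm00001eb222770 was listed at 0 and had 1.70, and Zm00001eb218310 had 0.0433 and 1.36. Zm00001eb125010 had 290.0 and 177.3, and Zm00001eb291920 had 156.3 and 88.1. They were chosen after seeing the values.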
